A study of Oryza sativa with 27 samples.

Results

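The 103 loci described here had higher transcript levels in rice cells dosed with metcamifen than in carrier-treated cells 90 min after dosing, while their means 30 min and 240 min after dosing were below, or less than 0.5 on the log2 scale above, those of the carrier. They were selected on the metcamifen and DMSO libraries of a table of 46102 rows, among them 45866 rows named with the LOC_Os prefix. Counts were scaled to a library total of 1000000 (CPM), and the metcamifen effect at a time was taken as log2 of the ratio of mean CPM + 0.5 between metcamifen and DMSO. A locus was a member if its effect was at least 1 at 90 min and below 0.5 at 30 and at 240 min, if its lowest metcamifen library exceeded its highest DMSO library at 90 min, and if its metcamifen mean at 90 min was at least 2 CPM. None of the other 236 rows met these criteria (0 of 236). The rule set no lower limit at 30 and 240 min, so that members could be below the carrier there. Since these values chose the members, every metcamifen and DMSO value given below is a description and carries no test.

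RNA came from suspension cultures of the rice cultivar Tsukinohikari, which were 5 days old when they were dosed. The cultures received metcamifen at 5 µM, cyprosulfamide at 5 µM, or the solvent DMSO alone, and cells were taken after 30, 90 and 240 min. Each of the 9 groups of treatment and time had 3 libraries that the labels call biological replicates, 27 in all, of polyA RNA. All groups share the solvent, and the study has no undosed culture and no herbicide. A suspension culture is a stand-in for the plant, since its dividing cells lack the organs of a seedling. In such bulk RNA, more RNA per cell and more cells that express a locus cannot be told apart.

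Safeners are given with a herbicide to protect the crop from it, and they are known for raising detoxifying enzymes such as glutathione transferases, cytochrome P450 monooxygenases and glucosyltransferases. Metcamifen and cyprosulfamide are related acyl sulfonamides. They share a methoxybenzoyl sulfonamide core and differ in the group on the benzenesulfonamide ring, a methylurea in metcamifen and a cyclopropylamide in cyprosulfamide. Early responses to a chemical often include transcripts that rise and decline within hours while others stay high, and loci with a peak at an intermediate time are of the first kind. None of the 46102 identifiers could be paired with the gene table used here, so the loci are given by identifier, without gene names or roles, and the cell type was not checked against marker genes.

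Library totals ranged from 5516373 to 43747251 counts. Depth moved with time under cyprosulfamide, from 23743177 to 43747251 counts at 30 min to between 5516373 and 14262183 at 240 min, and its part in the results below was not tested beyond thinning. The libraries also differed in a way that the treatments do not explain. Replicate 1 of DMSO was lower than replicates 2 and 3 over the members, at each time, and replicate 1 of metcamifen was higher. Relative to the DMSO mean of the same time, the median log2 ratio over members in DMSO replicate 1 was -0.38, -0.32 and -0.53 at 30, 90 and 240 min. This library was the lowest of its group in 81, 75 and 90 of the 103 members at the same times. Metcamifen replicate 1 was instead the highest of its group in 69, 67 and 78 members, and cyprosulfamide replicate 1 the lowest in 60, 71 and 75. A principal component analysis over all expressed loci showed the same order. In 9 of 9 groups the library highest on the first component, which held 21.03% of the variance, had the lowest median level over the members. At 90 min the metcamifen and DMSO libraries overlapped on this component. Their mean positions were -17.5 and -3.64 with all libraries and -4.12 and -21.8 without replicate 1, so the order of the means turned with that replicate. The second component held 17.9% of the variance. On it the metcamifen libraries at 90 min lay at 46.9 to 54.6, and the DMSO libraries of that time at -22.1 to -14.0. The part of either component in the results was not tested. Effects over the members, and those of several single loci, are given below with and without replicate 1.

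**Figure D1:**
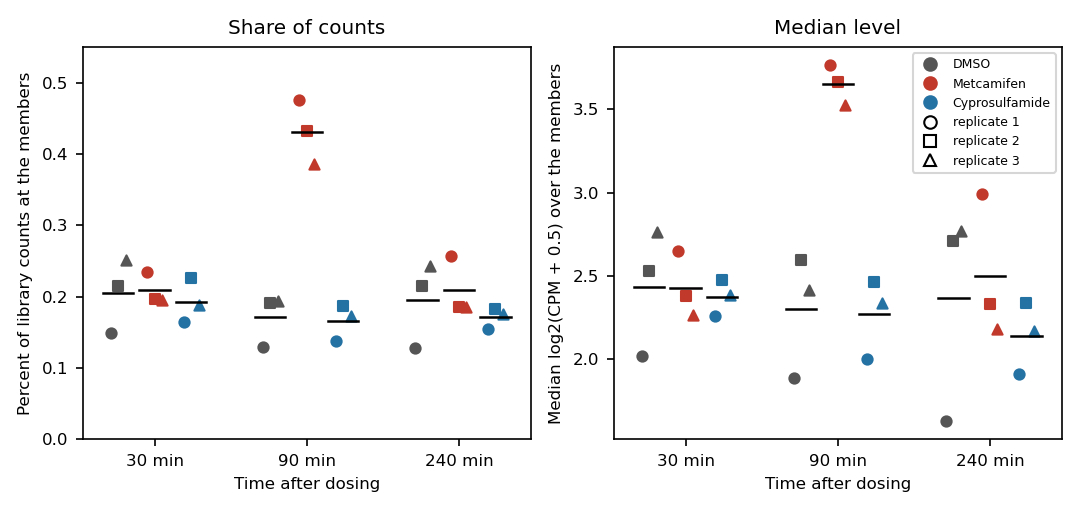
Left, percent of each library's counts that fell on the 103 members. Right, median log2(CPM + 0.5) over the members, with the time after dosing on the horizontal axis of both panels. Each point is 1 library, its shape gives the replicate number, and bars are means of 3 libraries. The 3 metcamifen libraries at 90 min sit between 0.385% and 0.475%, above all 24 other libraries, and DMSO replicate 1 is the lowest DMSO library at each time.

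At 90 min the members stood at a median of 2.57 times their DMSO level, with folds of mean CPM from 2.04 to 8.66. Together they took 0.171 ± 0.0362% of library counts under DMSO and 0.431 ± 0.0450% under metcamifen (SD, n = 3). At 30 min the share was 0.205 ± 0.0524% under DMSO and 0.209 ± 0.0226% under metcamifen. At 240 min it was 0.195 ± 0.0596% and 0.209 ± 0.0409%. Under metcamifen the mean shares at 30 and 240 min thus lay inside the range of the DMSO libraries of the same time, and that at 90 min did not. Among single libraries, metcamifen replicate 1 at 240 min, with 0.257%, was above the highest DMSO library of that time (0.243%) and of the study (0.252%).

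Most members passed the effect threshold narrowly. The effect at 90 min ran from 1.00 to 2.52 on the log2 scale with a median of 1.21. It lay within 0.25 of the minimum in 57 members and was at least 1.5 in 17 and at least 2 in only 2. The distribution had no gap at the threshold: among the 1422 loci that met every other criterion, 121 had an effect from 0.75 to under 1 and 230 one from 0.5 to under 0.75. Of all LOC_Os rows, 1.01% met the criteria for 90 min whatever their effect at the other times. Every metcamifen library exceeded every DMSO library at 90 min in all 103 members by the choice of members, and in 9.84% of the LOC_Os rows with a metcamifen mean of 2 CPM or more at that time. In these same libraries, which chose the members, the lowest metcamifen library was at least 2-fold above the highest DMSO library in 40 members. The median of this ratio was 1.89 (range 1.01 to 4.05). In 70 members all 3 metcamifen libraries at 90 min were also above each of the 24 other libraries of the study. No share over all rows stands beside the counts of 40 and 70. The rule favoured both, so nothing is read from them.

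The members were mostly of low to moderate abundance. Their DMSO mean at 90 min ranged from 0.395 to 151 CPM with a median of 4.69, beside 20.2 CPM over the LOC_Os rows of 2 CPM or more. The metcamifen mean ranged from 2.01 to 457 CPM with a median of 12.1. It was under 5 CPM in 31 members and at least 100 CPM in 14. Behind these values stood 107 to 23654 counts over the 3 metcamifen libraries and 21 to 7963 over the 3 DMSO libraries, and all 103 passed the low-count filter of the fit. The coefficient of variation between replicates at 90 min had a median of 15.4% under metcamifen and 26.1% under DMSO.

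**Figure D2:**
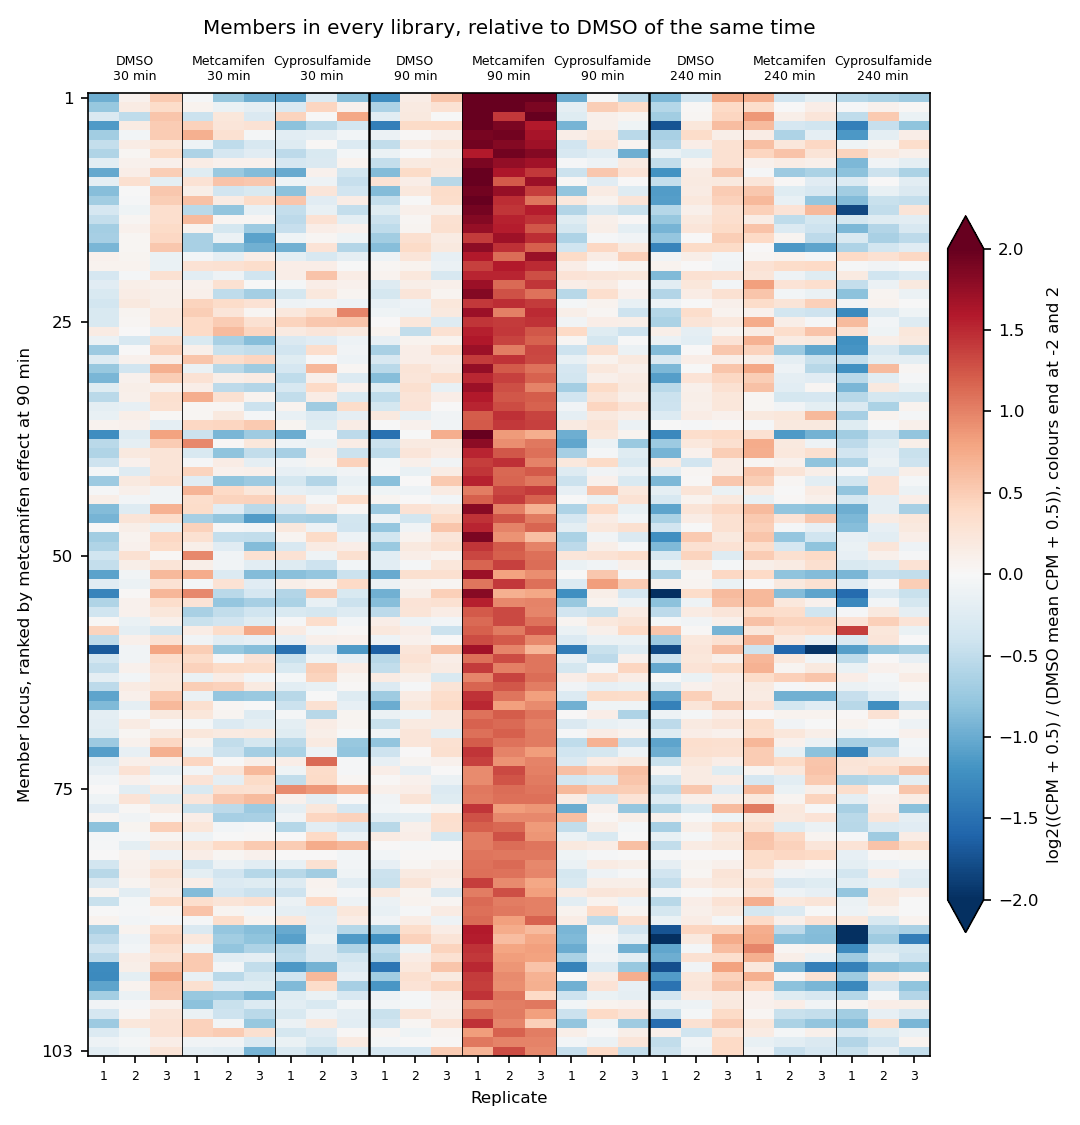
Heat map of the 103 members (rows, ranked by the metcamifen effect at 90 min) in the 27 libraries (columns, by time, treatment and replicate). Colour gives log2 of (CPM + 0.5) over the DMSO mean of the same time + 0.5, red above and blue below. The metcamifen columns at 90 min are red throughout, while DMSO replicate 1 is blue in most rows at every time.

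LOC_Os06g44010 had the largest effect. Its 3 DMSO libraries at 90 min held 0.0543, 0.953 and 1.41 CPM (replicates 1, 2 and 3, in this order throughout), and the metcamifen libraries 9.0004, 6.20 and 5.71 CPM. Under metcamifen it stood at 0.962, 0.382 and 0.256 CPM at 30 min and at 1.62, 0.481 and 0.621 CPM at 240 min. Only the 90 min libraries lie apart, and the earlier and later ones overlap the DMSO libraries, which held 0.257, 1.08 and 1.63 CPM at 30 min and 0.185, 0.484 and 1.66 CPM at 240 min. Its effect of 2.52 depended on the low DMSO replicate 1, and was 2.15 without it and 1.94 without replicate 1 of either treatment. Under cyprosulfamide at 90 min its libraries held 0.153, 0.794 and 0.396 CPM.

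LOC_Os07g37730 combined the second largest effect with the highest level of all members. It measured 69.1, 121 and 129.9 CPM in the DMSO libraries at 90 min and 475, 501 and 394 CPM in the metcamifen libraries. At 30 min the metcamifen libraries held 165, 145 and 139.7 CPM, within the DMSO range of 92.9, 177 and 204. At 240 min they held 209, 165 and 179.6 CPM and the DMSO libraries 109.7, 166 and 215, so that the groups overlapped again. The metcamifen means show 1 peak: 150.1 ± 13.5, 457 ± 55.8 and 184 ± 22.4 CPM over the 3 times (SD, n = 3). The cyprosulfamide libraries at 90 min, with 93.9, 149.9 and 138 CPM, overlapped the DMSO libraries of that time.

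The next 4 by effect spanned a wide range of levels. LOC_Os09g15670 had 0.326, 0.596 and 0.45 CPM under DMSO and 3.85, 2.04 and 3.35 CPM under metcamifen at 90 min, an effect of 1.90. At 240 min it was not back at the DMSO level in every library, with 2.20, 1.11 and 1.24 CPM under metcamifen, where 1 library lay above all 3 DMSO libraries (0.416, 1.02 and 1.50 CPM). LOC_Os09g28160 showed the replicate order most plainly, with 6.62, 23.2 and 23.5 CPM under DMSO and 78.9, 66.6 and 54.3 CPM under metcamifen at 90 min. Its effect of 1.88 was 1.49 without the DMSO libraries of replicate 1 and 1.35 without replicate 1 of either treatment.

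LOC_Os09g31130 had tight groups at 90 min, with 1.63, 1.85 and 1.97 CPM under DMSO and 8.18, 8.32 and 6.75 CPM under metcamifen. It was already 3.71, 2.68 and 1.998 CPM under metcamifen at 30 min, where DMSO libraries held 1.08, 1.97 and 3.14 CPM, and it stood at 2.05, 1.01 and 1.55 CPM at 240 min. LOC_Os06g45184 went from 6.32, 4.66 and 5.38 CPM at 30 min to 23.2, 21.9 and 19.8 CPM at 90 min and 10.2, 7.75 and 8.90 CPM at 240 min under metcamifen. Its DMSO libraries at 90 min held 3.96, 6.49 and 6.81 CPM and its cyprosulfamide libraries 4.27, 6.88 and 6.03 CPM, which overlap closely.

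**Figure D3:**
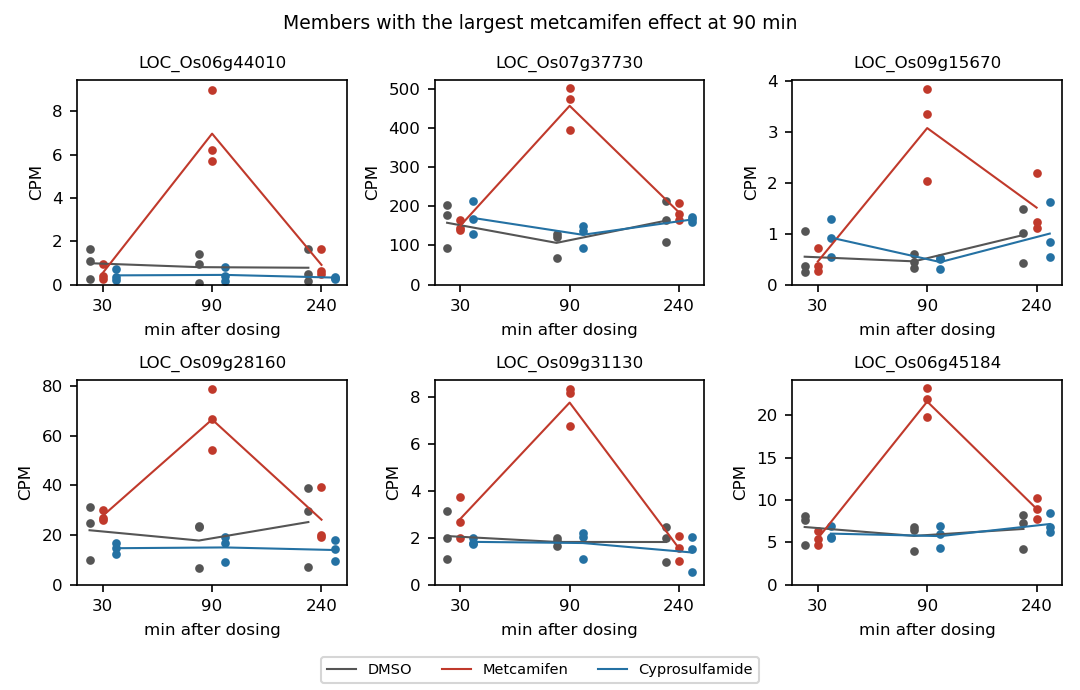
CPM in every library for the 6 members with the largest metcamifen effect at 90 min, 1 panel each, with time after dosing in min (evenly spaced) on the horizontal axis. Points are libraries and lines join the means of 3 libraries. In each panel the 3 metcamifen points at 90 min lie above all DMSO and cyprosulfamide points of that time, as in LOC_Os06g45184 with a metcamifen mean of 21.6 CPM.

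Among the 4 members of highest level, the other 3 had smaller effects on a larger base. LOC_Os01g21250 measured 111, 171 and 171 CPM under DMSO and 344, 331 and 304 CPM under metcamifen at 90 min (effect 1.11). At 240 min, with 237, 177 and 183 CPM against 128, 208 and 218 CPM, the groups overlapped. LOC_Os07g09420 measured 46.4, 99.5 and 111 CPM under DMSO and 327, 288 and 224 CPM under metcamifen at 90 min (effect 1.70), with opposite replicate orders in the 2 groups. LOC_Os04g58710 had 138, 159 and 155 CPM under DMSO and 331, 305 and 304 CPM under metcamifen at 90 min (effect 1.05).

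In LOC_Os04g58710 the level was also lower at the last time in the carrier. Its DMSO libraries held 134, 177 and 236 CPM at 30 min and 66.05, 107 and 119.9 CPM at 240 min, and its metcamifen libraries 231, 219 and 229 and 162, 114 and 116 CPM. The metcamifen level at 30 min thus exceeded that at 240 min in every library, although neither effect reached 0.5.

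At each threshold the nearest loci inside and outside had nearly equal values. LOC_Os09g31442 entered with an effect of 1.003 at 90 min, while LOC_Os05g39760, at 0.999, was left out. LOC_Os05g35430 entered with 0.485 at 30 min, and LOC_Os06g47520 was left out with 0.503. LOC_Os12g39730 entered with 0.498 at 240 min, and LOC_Os12g42200 was left out with 0.505. LOC_Os03g16170 had a metcamifen mean of 2.01 CPM, and LOC_Os09g26360, with 1.87 CPM, was left out. In all, 84 loci failed only the ceiling at 30 min, 88 only that at 240 min, 21 only the minimum level and 1 only the separation of libraries.

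Under metcamifen itself the members were highest at 90 min. The log2 ratio of means from 30 to 90 min had a median of 1.14 (range 0.33 to 2.85), and that from 90 to 240 min a median of -1.01 (range -2.41 to 0.08). All 3 libraries at 90 min were above all 3 at 30 min in 98 members, beside 13.1% of the LOC_Os rows of 2 CPM or more. All 3 at 240 min were below all 3 at 90 min in 86 members, beside 11.6% of those rows. The metcamifen mean at 90 min was the highest of the 9 group means in 102 members. The rule favoured this outcome, and no share over all rows stands beside it. In DMSO the same ratios had medians of -0.16 and 0.18. DMSO libraries at 90 min were all below those at 30 min in 12 members (3.79% of rows), and those at 240 min all above those at 90 min in 6 (5.36% of rows). A low DMSO value at 90 min helped a locus to pass the rule, so these DMSO shifts are not independent of the choice.

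The largest falls from 90 to 240 min under metcamifen, by this log2 ratio, were in LOC_Os06g44010 (-2.41) and LOC_Os01g04580 (-2.35). LOC_Os01g04580 held 34.7, 21.1 and 16.8 CPM under metcamifen at 90 min and 7.64, 3.13 and 2.28 CPM at 240 min. At 240 min its DMSO libraries held 2.59, 12.3 and 16.1 CPM, so its effect of -1.16 was the lowest of all members at that time. Without replicate 1 of either treatment this effect was -2.20, and its effect at 90 min went from 1.17 to 0.40. All 3 DMSO groups of this locus had replicate 1 far below the other two, with 3.04, 12.5 and 15.9 CPM at 90 min.

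**Figure D4:**
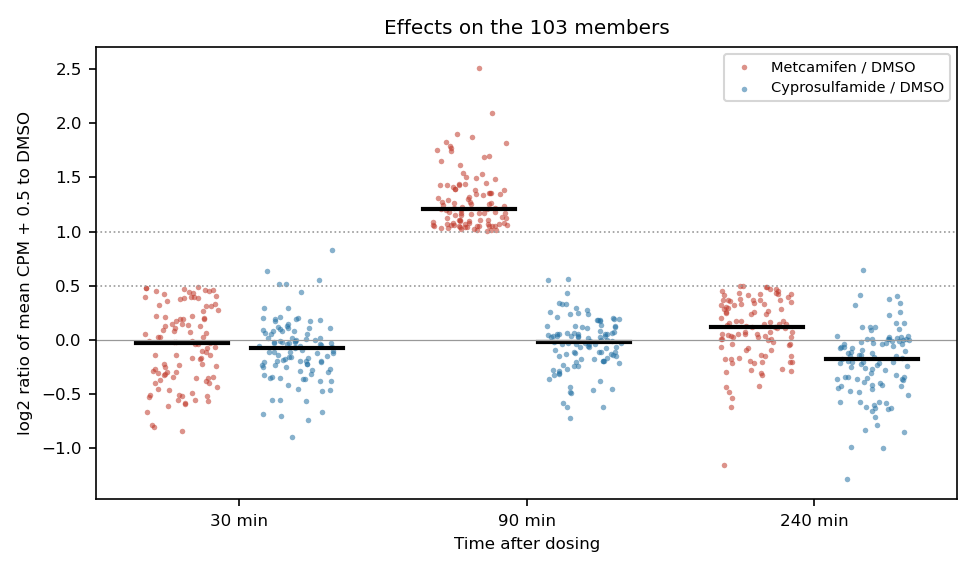
Log2 ratio of mean CPM + 0.5 to DMSO for each of the 103 members (points, spread sideways for visibility) at 30, 90 and 240 min, for metcamifen and cyprosulfamide. Black bars are medians, and dotted lines mark the thresholds of 0.5 and 1. Metcamifen points lie at 1 or more at 90 min and below 0.5 at the other times by the choice of members, and the cyprosulfamide medians are -0.08, -0.02 and -0.18.

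At 30 min the metcamifen effect over members had a median of -0.03 and ran from -0.84 to 0.49. It was below 0 in 56 members and at least 0.25 in 25. At 240 min the median was 0.11, with a range from -1.16 to 0.50. There 33 members were below 0 and 36 at 0.25 or above. A ceiling of 0.5 therefore left room for small effects on either side of the peak, and 24 members had effects within 0.25 of 0 at both times. All metcamifen libraries were above all DMSO libraries in 12 members at 30 min (5.66% of the LOC_Os rows of 2 CPM or more) and in 12 at 240 min (12.4% of those rows). They were all below in 6 members at 30 min (6.34%) and in 0 at 240 min (7.34%).

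These medians moved with replicate 1. Without replicate 1 of DMSO and metcamifen, the median effect over the same members was -0.32, 1.05 and -0.21 at 30, 90 and 240 min. With these libraries left out, 58 of the members still had an effect of 1 or more at 90 min and 96 one above 0.5. In all 103 the remaining metcamifen libraries lay above the remaining DMSO libraries, which the rule had fixed in advance. The effect at 90 min then ran from 0.33 to 1.94, so the median stayed near 1 while single loci fell well under the threshold. An effect of -0.5 or less was found in 42 members at 30 min and 31 at 240 min, beside 15 and 3 with all libraries. The sign of the median at 240 min thus depended on these libraries.

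In edgeR's quasi-likelihood fit over 26465 loci, which counts as a description for these contrasts, 85 members were called higher at 90 min at an adjusted p under 0.05, beside 4.49% of all loci. At 30 min 3 members were called (1.35% of loci in either direction), and at 240 min 3, all higher (3.06% of loci higher). These few are named after their values were seen. Nothing is read from these counts, since the rule set a ceiling on the same differences.

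LOC_Os01g09020 was among the calls at both times, with small and tight differences. It measured 52.4, 52.2 and 45.3 CPM under DMSO and 61.4, 62.1 and 63.8 CPM under metcamifen at 30 min. At 90 min the values were 50.9, 51.7 and 45.6 and 128, 149.9 and 141 CPM, and at 240 min 55.2, 52.9 and 50.2 and 64.6, 68.2 and 69.9 CPM. The groups did not overlap at any time, with effects of 0.32, 1.49 and 0.35, values that the rule had used. In a fit of only the metcamifen and DMSO libraries of the time in question, 0 members were called at 30 min and 1 at 240 min. With the replicate number added to that fit as a block, 0 were called at 30 min and 0 at 240 min. LOC_Os03g22160 differed in the same direction at the later times. It held 60.9, 62.4 and 62.5 CPM under DMSO and 80.3, 82.8 and 81.8 CPM under metcamifen at 240 min, and 129.9, 127 and 128 CPM under metcamifen at 90 min.

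LOC_Os03g57900 was the other call at 240 min, with 5.60, 5.52 and 6.27 CPM under DMSO and 8.98, 8.04 and 8.07 CPM under metcamifen. It had been lower under metcamifen at 30 min, with 7.83, 8.22 and 9.07 CPM against 10.999, 9.87 and 11.6 CPM. LOC_Os04g58420 was called higher at 30 min, with 5.65, 5.68 and 4.66 CPM under DMSO and 7.28, 7.38 and 7.89 CPM under metcamifen, and showed an effect of only 0.13 at 240 min. LOC_Os02g56120 was called lower at 30 min, with 16.7, 17.3 and 18.98 CPM under DMSO and 9.75, 12.8 and 14.5 CPM under metcamifen. By 90 min it stood at 34.1, 34.96 and 35.5 CPM against 16.2, 16.4 and 18.02 CPM, a change of side between the times without overlap at either.

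Cyprosulfamide, at the same dose and times, gave no such peak at these loci. The log2 ratio of cyprosulfamide to DMSO over the members had a median of -0.08 at 30 min, -0.02 at 90 min and -0.18 at 240 min. At 90 min it was within 0.5 of 0 in 97 of the 103 members. All cyprosulfamide libraries were above all DMSO libraries at 90 min in 5 members and below in 4, beside 4.46% and 3.53% of the LOC_Os rows of 2 CPM or more. The members' share of counts under cyprosulfamide was 0.193 ± 0.0312%, 0.166 ± 0.0248% and 0.171 ± 0.0148% at 30, 90 and 240 min (SD, n = 3), within the DMSO spread each time.

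In edgeR's fit, 0 members were called between cyprosulfamide and DMSO at 30, 90 or 240 min, beside 0.00378%, 0% and 0% of all loci. At an unadjusted p under 0.05 the counts were 6, 2 and 2 members out of 103 (5.83%, 1.94% and 1.94%), beside 9.63%, 3.09% and 6.31% of all loci. DESeq2 called 1, 0 and 0 members and 37, 0 and 0 loci in all. The DMSO libraries served the rule too, so these counts are descriptions. The 95% interval of the difference, from limma's trended fit, stayed under a 2-fold difference at both ends for 63, 66 and 59 members at the 3 times. For the others a 2-fold difference was inside the interval, so that the members as a list were not shown to be unaffected by cyprosulfamide. Over all 26465 loci the intervals were narrower, with 85.8%, 87.3% and 84.6% within 2-fold.

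The members with the highest ratio of cyprosulfamide to DMSO at 90 min were LOC_Os09g28940 (0.56) and LOC_Os08g31090 (0.55). LOC_Os09g28940 held 1.52, 1.13 and 1.35 CPM under DMSO, 2.29, 2.05 and 2.27 CPM under cyprosulfamide and 3.02, 4.09 and 3.19 CPM under metcamifen at 90 min. LOC_Os08g31090 held 6.51, 6.73 and 4.96 CPM under DMSO, 9.82, 8.80 and 8.70 CPM under cyprosulfamide and 13.1, 13.7 and 13.3 CPM under metcamifen. In both the 3 groups stood apart in this order at 90 min. LOC_Os08g31090 was highest under cyprosulfamide at 30 min, with 14.4, 13.6 and 11.9 CPM, when metcamifen libraries held 5.77, 9.21 and 9.07 CPM and DMSO libraries 7.30, 6.22 and 8.21 CPM.

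The lowest ratios were in LOC_Os02g11859 (-0.72) and LOC_Os01g04580 (-0.62). LOC_Os02g11859 held 5.59, 18.8 and 24.04 CPM under DMSO, 6.11, 13.3 and 9.40 CPM under cyprosulfamide and 47.1, 30.1 and 24.2 CPM under metcamifen at 90 min. LOC_Os01g04580 held 3.66, 7.54 and 8.70 CPM under cyprosulfamide. In both the DMSO values spread widely between replicates, with replicate 1 lowest, and the cyprosulfamide libraries lay inside that spread. Without replicate 1 of all treatments these ratios were -0.89 and -0.77. The metcamifen effect of LOC_Os02g11859 at 90 min was 1.04, and 0.33 without replicate 1 of metcamifen and DMSO.

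Set directly against cyprosulfamide, the related compound at the same dose, metcamifen was again higher at the members at 90 min. The log2 ratio of metcamifen to cyprosulfamide over members had a median of 0.05 at 30 min, 1.33 at 90 min (range 0.53 to 2.98) and 0.28 at 240 min. Metcamifen libraries were all above cyprosulfamide libraries in 21 members at 30 min (4.31% of the LOC_Os rows of 2 CPM or more), 102 at 90 min (11.2%) and 22 at 240 min (10.3%). In edgeR's fit 3, 89 and 2 members were called higher under metcamifen at the 3 times, beside 1.18%, 5.05% and 2.47% of all loci, and 0 were called lower. The metcamifen libraries had chosen the members, so neither the size nor the count is a test of the difference between the compounds.

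Against DMSO all 103 members met every criterion by the choice of members, so another reference could only give as many or fewer. With cyprosulfamide libraries in place of DMSO, 88 members had an effect of at least 1 at 90 min, 92 one below 0.5 at 30 min and 81 one below 0.5 at 240 min, and 57 met all criteria. The full rule with that reference found 100 loci, of which those same 57 were members.

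Of the few calls at the other times, LOC_Os01g40630 held 22.03, 22.7 and 21.98 CPM under cyprosulfamide and 32.6, 30.8 and 29.2 CPM under metcamifen at 30 min. LOC_Os11g02010 held 2.70, 2.97 and 3.64 and 5.08, 5.27 and 4.61 CPM at that time, and LOC_Os04g58420, described above, 5.56, 4.43 and 5.99 CPM under cyprosulfamide. All 3 metcamifen libraries were above the cyprosulfamide libraries in each of these loci before the peak. At 240 min the calls were LOC_Os01g09020, with 51.7, 50.2 and 52.2 CPM under cyprosulfamide, and LOC_Os03g22160, with 55.3, 63.1 and 63.7 CPM.

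The cyprosulfamide libraries were not used by the rule, so the course under cyprosulfamide could be tested. From 30 to 90 min, where the members were higher under metcamifen, 0 of 103 were called under cyprosulfamide in edgeR's test, beside 0.193% of all loci. At an unadjusted p under 0.05, 13 members (12.6%) were lower at 90 min and 0 higher, beside 4.96% and 5.15% of all loci. DESeq2 called 1 member, lower, and 142 loci in all. All 3 cyprosulfamide libraries at 90 min were below all 3 at 30 min in 22 members and above in 1, beside 5.23% and 6.95% of the LOC_Os rows of 2 CPM or more. The median log2 ratio of means was -0.12 over the members and 0.02 over those rows. The 95% interval lay within 2-fold for 56 members (54.4%), beside 86.2% of all loci. Its bounds had medians of -0.88 and 0.47 over the members and -0.30 and 0.33 over all loci.

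From 90 to 240 min under cyprosulfamide, 0 of 103 members were called by edgeR, beside 0.54% of all loci, and 0 by DESeq2, beside 269 loci. At an unadjusted p under 0.05 there were 7 members (3 higher, 4 lower), or 6.80%, beside 11.6% of all loci. Same-numbered cyprosulfamide libraries deviated together over these times, and with the replicate number as a block 6 members were called (2 of them higher), beside 887 or 3.35% of all loci. The libraries were all above in 14 members and all below in 8, beside 12.8% and 9.07% of rows, and the median log2 ratio was 0.03.

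From 30 to 240 min under cyprosulfamide, 6 of 103 members were called and all 6 were lower, beside 2.03% of loci called in either direction and 1.25% called lower. All libraries at 240 min were below those at 30 min in 22 members (7.31% of rows). The count of 6 fell to 1 without the 30 min library of replicate 2 or the 240 min library of replicate 1, to 3 without the 240 min library of replicate 2, and to 0 without the 240 min library of replicate 3. Depth fell between these times, and 4 of the 99 members that could then be tested were called, beside 1.34% of loci, once every library had been thinned to the lowest total.

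LOC_Os06g13320 fell the most in this contrast, by 1.40 on the log2 scale (SE 0.357, adjusted p = 0.0411, edgeR's quasi-likelihood test). Its cyprosulfamide libraries held 5.94, 9.99 and 7.998 CPM at 30 min, 2.14, 5.03 and 4.35 CPM at 90 min and 1.63, 4.12 and 3.23 CPM at 240 min. The DMSO libraries went the same way, from 6.27, 8.20 and 8.04 to 2.27, 3.83 and 4.49 CPM. LOC_Os07g04820 fell by 1.32 on the log2 scale (SE 0.322, adjusted p = 0.0320, edgeR), from 9.48, 14.1 and 12.7 CPM at 30 min to 3.08, 6.07 and 5.33 CPM at 240 min. Its DMSO libraries held 9.82, 13.6 and 13.2 and 3.70, 6.49 and 7.26 CPM at these times, and its metcamifen libraries 22.9, 15.4 and 13.5 CPM at 90 min. In both loci every DMSO and cyprosulfamide library at 240 min was below every one of its treatment at 30 min.

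The other 4 calls, named after their values were seen, were LOC_Os03g51390, LOC_Os03g57900, LOC_Os04g58710 and LOC_Os07g47670. LOC_Os03g51390 went from 33.6, 40.6 and 40.4 CPM to 15.4, 22.7 and 19.1 CPM under cyprosulfamide. LOC_Os03g57900 went from 10.7, 14.04 and 10.5 CPM to 7.07, 8.24 and 7.08 CPM. LOC_Os04g58710 went from 168, 242 and 171 CPM to 90.5, 112 and 97.7 CPM. LOC_Os07g47670 went from 9.69, 9.92 and 10.4 CPM to 6.53, 5.64 and 7.29 CPM. In each the libraries of the 2 times did not overlap, and adjusted p in edgeR ran from 0.00586 in LOC_Os03g57900 to 0.0392 in LOC_Os07g47670. Over 12 other settings these 6 calls were lost in 2 to 6 of them, the fewest times for LOC_Os03g57900. Among all members, 8 had a mean more than 0.5 lower on the log2 scale at 240 than at 30 min in both DMSO and cyprosulfamide, and 2 had one more than 0.5 higher in both. No share over all rows stands beside these counts, and the DMSO libraries had served the rule.

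**Figure D5:**
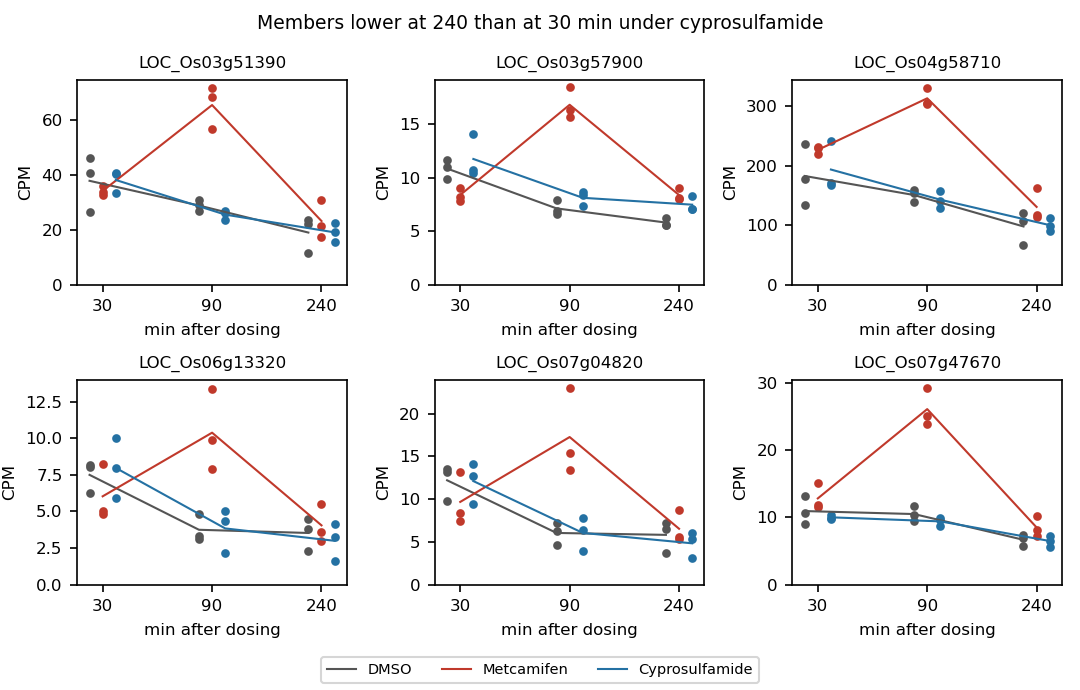
CPM in every library for the 6 members called lower at 240 than at 30 min under cyprosulfamide, 1 panel each, with time after dosing in min (evenly spaced) on the horizontal axis. Points are libraries and lines join the means of 3 libraries. Grey DMSO and blue cyprosulfamide lines end lower than they begin, and the red metcamifen line peaks at 90 min, as in LOC_Os03g51390 with 71.7, 68.4 and 56.7 CPM.

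The members were 103 of 462 LOC_Os rows that met the 90 min criteria. A further 84 also had an effect of 0.5 or more at 30 min, 88 had one at 240 min, and 187 had one at both times. The loci raised at all 3 times had the largest effect at 90 min, with a median of 2.40, beside 1.21 for the members, 1.47 for those also raised at 30 min and 1.31 for those also raised at 240 min. The return from 90 to 240 min under metcamifen was about as large in the members (median log2 ratio -1.01) as in the loci raised at all 3 times (-1.23), which still had a median effect of 1.23 at 240 min. It was -1.37 in the class also raised at 30 min and -0.52 in that also raised at 240 min. The ratio of cyprosulfamide to DMSO at 90 min had medians of -0.02 in the members, -0.0014 and -0.0079 in the classes with 1 further time, and 0.04 in the loci raised throughout. The classes were chosen by the same values, and no test was made between them.

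The same rule was also applied with 30 or 240 min as the single time. Under metcamifen, 182, 462 and 196 loci met the criteria for a raised level at 30, 90 and 240 min, whatever their other effects. Of these, 5, 103 and 28 were raised at that time only. With the sign reversed, 17, 59 and 37 loci met the criteria for a single time, and 3, 26 and 21 met the full rule. More loci thus met the rule at 90 min, where more also met the criteria for a single time. The shares were not tested. For cyprosulfamide against DMSO the rule found 5, 0 and 0 loci raised and 0, 0 and 2 lowered at the 3 times, none of them a member.

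Membership was sensitive to single libraries, as the many effects close to a threshold imply. With each of the 18 metcamifen and DMSO libraries left out in turn, the rule found 76 to 138 loci and kept 66 to 102 of the members. The fewest were kept without the DMSO library of replicate 1 at 90 min. In all 18 cases 25 members were found, 27 were missed in 1 case and 51 in more. The 25 had a median effect of 1.43 at 90 min, beside 1.17 in the other 78. LOC_Os07g37730 and LOC_Os07g09420 were among these 25, and LOC_Os06g44010 and LOC_Os09g28160 were each missed in 1 case.

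By the chromosome number in the identifier, chromosome 3 held 21 members, or 20.4% beside 12.99% of the LOC_Os rows of 2 CPM or more. Chromosome 7 held 14 (13.6% beside 7.70%) and chromosome 9 held 10 (9.71% beside 5.58%). Chromosome 5 held 2 (1.94% beside 8.48%). No coordinates were used, and these shares were not tested.

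At 3 places a pair of members had identifiers next to each other in the table's order. LOC_Os01g09010 and LOC_Os01g09020 held 198, 210.3 and 189 CPM and 128, 149.9 and 141 CPM under metcamifen at 90 min, and 87.4, 108 and 80.1 CPM and 50.9, 51.7 and 45.6 CPM under DMSO. LOC_Os04g44354 and LOC_Os04g44370 held 7.28, 4.89 and 4.43 CPM and 3.16, 2.34 and 1.28 CPM under metcamifen, and 1.09, 2.26 and 2.08 CPM and 0.76, 0.834 and 0.957 CPM under DMSO. LOC_Os09g09650 and LOC_Os09g09660 held 25.5, 29.1 and 24.5 CPM and 3.71, 4.89 and 3.83 CPM under metcamifen, and 9.44, 10.7 and 12.95 CPM and 1.36, 1.61 and 1.58 CPM under DMSO. How reads that match several or overlapping loci were counted is not given in the sources used here, so the members of a pair may share reads. Another 4 pairs lay within 10 identifiers of each other, and the loci between them had effects from -0.15 to 0.21 at 90 min.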

How the data were processed

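PolyA RNA of 27 libraries (9 groups of treatment and time, 3 biological replicates each) was sequenced. The authors deposited a table of whole-number read counts per locus and library, not normalized, as its differing column totals show. Per the submitters' processing notes GSNAP and edgeR were used. The sources used here do not give their versions, the genome build, the annotation, the strand setting or the handling of reads that match several loci. Groups were taken from the labelled treatment and time. The members, the lists and the tests were chosen with earlier results of these data known.

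From the deposited counts, CPM (count over library total, times 1000000) gave the membership rule, with a pseudocount of 0.5. For tests the whole table was fitted in edgeR 4.0.16 (R 4.3.3): filterByExpr (minimum count 10, minimum total 15) left 26465 loci, with TMM scaling, 9 group means, 18 residual degrees of freedom, two-sided quasi-likelihood tests and Benjamini-Hochberg adjustment within each of 12 contrasts. A call is an adjusted p under 0.05. Intervals at 95% came from limma 3.58.1 on log2 CPM (prior count 2). The scripts were tested on simulated data. p-values and intervals measure the spread between these libraries. Named loci follow a fixed rule: the 6 largest effects, the 4 highest levels, loci next to each threshold, up to 2 calls per direction over time under cyprosulfamide, extremes of cyprosulfamide against DMSO and of the fall under metcamifen, and neighbouring identifiers; others are said to be named after their values were seen. The replicate numbers were taken to pair cyprosulfamide libraries at 90 and 240 min, where the deviations of same-numbered libraries correlated at 0.20 to 0.55 over 15516 loci. No other of the 12 contrasts met the criterion of at least 0.1 in every replicate. Same-numbered libraries also correlated between times within DMSO (0.35 to 0.82) and within metcamifen (0.25 to 0.74), in contrasts that were not tested. The main fit held no replicate term. Alternatives were DESeq2 1.42.0, RLE scaling, no low-count filter, the compared libraries only, the replicate block, thinning to 5516373 counts, other thresholds and pseudocounts, and leaving out each library. In contrasts between treatments the replicate block was added to the fit of the compared libraries only. The check of identifiers against 39387 reference genes (ASM3414082v1) gave 0 matches.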

Additional observations from a re-analysis of the deposited data

Results flagged for a closer look

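In 6 members every metcamifen library was below every DMSO library at 30 min and above every one at 90 min, so the effect changed side between the times without overlap at either. The metcamifen and DMSO libraries of both times had chosen the members, and the difference between the times was not tested. All 103 members lay above at 90 min by the rule, so these 6 are simply the members that lay below at 30 min. Over the LOC_Os rows of 2 CPM or more, 6.34% lay below at 30 min, so 6 of 103 is near the share over all such rows. The log2 effects at 30 and 90 min were -0.53 and 1.05 in LOC_Os02g32840, -0.50 and 1.03 in LOC_Os02g56120, and -0.51 and 1.18 in LOC_Os03g53930. They were -0.35 and 1.18 in LOC_Os03g57900, -0.79 and 1.03 in LOC_Os04g44370, and -0.56 and 1.08 in LOC_Os07g03020. No member (0 of 103) lay below DMSO in this way at 240 min.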

How the results depend on the processing

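The count of 103 members was 53 with a ceiling of 0.25 on the effects at 30 and 240 min and 158 with one of 0.75, and stayed within 1.5-fold, at 72 to 124, under TMM-adjusted totals, other pseudocounts, other minimum levels, thinning and cyprosulfamide as the reference. Leaving out 3 or 6 libraries of replicate 1, an alternative chosen after seeing the data, gave 83 to 95. With the members held fixed, the median metcamifen effect at 30 min was -0.23 without the DMSO libraries of replicate 1 and -0.32 without replicate 1 of either treatment, and at 240 min it was -0.21 without both. The median for cyprosulfamide against DMSO at 30 min was -0.25 in either case. Leaving out 1 library at a time moved these medians from -0.23 to 0.13 and from -0.25 to 0.0217 at 30 min, the lowest without DMSO replicate 1.

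For cyprosulfamide at 90 against 30 min, DESeq2 called 1 member and 142 loci, thinning 22 loci, and a fit of the compared libraries 17 loci. At 240 against 90 min, DESeq2 called 269 loci and the compared libraries 81. At 240 against 30 min, thinning gave 309 loci and the compared libraries 234. Replicate numbers did not meet the criterion for pairing at 90 against 30 min or 240 against 30 min, where the lowest correlations were -0.05 and -0.08. With the replicate block, members called over 90 against 30, 240 against 90 and 240 against 30 min were 7, 6 and 18, and all loci 505, 887 and 2296. Without 1 library, member calls ranged from 0 to 1 and from 0 to 8 in the first and last of these contrasts, and calls over all loci from 24 to 123, from 63 to 187 and from 146 to 1334.

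Calls over all loci are given here after those of members. The block was added here to the fit of the compared libraries, so the 2 settings are best read against each other. Metcamifen against DMSO at 30 min called 3 members and 356 loci in the main analysis, 1 and 379 without a low-count filter, 0 and 272 with thinning, 0 and 271 with the compared libraries, and 0 and 166 with the replicate block. At 90 min 85 and 1573 became 85 and 1468 with the compared libraries, 55 and 678 with the block, and 71 and 1092 with thinning. At 240 min 3 and 1231 became 1 and 800 with thinning, 1 and 386 with the compared libraries, and 0 and 27 with the block. Same-numbered metcamifen and DMSO libraries deviated in opposite directions (correlations from -0.84 to -0.29). Metcamifen against cyprosulfamide at 30 min went from 3 and 376 to 1 and 288 with thinning, 1 and 274 with the compared libraries, and 1 and 246 with the block. At 240 min 2 and 1044 became 4 and 993 with the compared libraries. Cyprosulfamide against DMSO at 30 min gave 1 and 37 with DESeq2. Without 1 library the calls for metcamifen at 30 min ranged from 0 to 4 against DMSO and from 0 to 3 against cyprosulfamide. The cause of these changes was not tested. At the lowest member levels, 21 counts over a group of 3 libraries limit the precision of a fold, and 57 members lie within 0.25 of the effect threshold.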
